A study of Mus musculus with 3 samples.

Results

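The neutrophils described here were tumour neutrophils with at least 0.2% of their transcripts from Cxcr2, Retnlg and Lrg1, and with interferon-induced and Ccl3/Ccl4 transcripts below set limits. They numbered 995 of 6493 gated neutrophils and of 16353 kept cells, 336 in the library labelled sgVC and 659 in the library labelled sgCPT1A. Members were chosen by their measured expression. A kept barcode (at least 200 genes, at most 20% mitochondrial UMIs) counted as a neutrophil when S100a8, S100a9, G0s2, Hdc, Csf3r, Il1r2, Trem1 and Clec4e together made at least 1% of its UMIs and C1qa, C1qb and C1qc less than 0.1%. A UMI is a molecular tag that lets each captured transcript be counted once. A neutrophil was a member when Isg15, Rsad2, Ifit1 and Ifit3 together were below 1%, Ccl3, Ccl4, Tnf and Il1a below 4%, and Cxcr2, Retnlg and Lrg1 at or above 0.2% of its UMIs. The remaining neutrophils were interferon-high (1890 cells), Ccl3/Ccl4-high (1260 cells) or low in all 3 sums (2348 cells). The 0.2% level was also reached by 21 sgVC and 190 sgCPT1A interferon-high cells and by 15 and 60 Ccl3/Ccl4-high cells, which the limits left out. Because the rule used expression, every value of members against other neutrophils is a description and carries no test. The name "recently recruited", under which such cells are often grouped, was not checked, since time since arrival was not measured.

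Neutrophils mature in the bone marrow, where they pack antimicrobial proteins into primary, secondary and tertiary granules in sequence, and leave for the blood as short-lived cells. Cxcr2 is the receptor for the chemokines Cxcl1, Cxcl2, Cxcl3 and Cxcl5, draws neutrophils out of marrow and into inflamed tissue, and is lost from the surface after activation. Retnlg encodes a resistin-like secreted protein of mature blood neutrophils, and Lrg1 a leucine-rich glycoprotein stored in neutrophil granules. Neutrophils that stay in a tumour are known to change their chemokine, stress and hypoxia genes.

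Tumours of 4T1, a mouse mammary carcinoma line, were dissociated whole and sequenced as 10x Genomics 3′ single-cell libraries, with no sort described. Cells of one library came from tumours of 4T1 cells carrying the control guide sgVC, with the genotype given as WT. Those of the other came from 4T1 cells carrying the guide sgCPT1A, given as a CPT1A knockdown, CPT1A being the mitochondrial gatekeeper of fatty acid import. The guide was in the injected cells, so the neutrophils were host cells of the same kind in both groups. Mice were female and 8 to 10 weeks old, and were kept for 8 days with the tumours. Neither the strain nor any pooling of animals is stated in the labels, which call the tissue a cell-line-derived xenograft. The series set out to find which immune cells beside CD8 T cells respond to Cpt1a loss. With 1 library per group there was no replicate, no test was possible, and every interval is a 95% interval that covers counting error alone. One more sgCPT1A sample is listed, which came with no matrix of its own here, and whether its cells are inside the sgCPT1A matrix could not be told. All groups are named by their labels.

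The 3 genes that set the threshold lie on separate chromosomes, and the 250 bases before their RefSeq starts are shown because these genes define the cells. On GRCm38 with the GENCODE M21 annotation, the protein-coding gene Cxcr2 spans chr1:74153989-74161246 on the plus strand, Retnlg chr16:48872621-48874496 on the plus strand, and Lrg1 chr17:56119678-56122001 on the minus strand. The windows, from RefSeq on GRCm38.p6 and read 5′ to 3′ along each gene, are chr1:74153744-74153993, chr16:48872358-48872607 and chr17:56121947-56122196. Capitals mark any match, on either strand, to a C/EBP motif (TTNNGCAA), a PU.1 motif (GAGGAAGT) or an AP-1 motif (TGANTCA), families that act in myeloid cells.
Cxcr2: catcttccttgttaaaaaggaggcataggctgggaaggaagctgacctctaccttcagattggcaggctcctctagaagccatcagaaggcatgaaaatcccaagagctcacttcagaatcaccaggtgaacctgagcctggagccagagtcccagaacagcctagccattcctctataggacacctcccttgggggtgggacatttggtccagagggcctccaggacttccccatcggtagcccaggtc
Retnlg: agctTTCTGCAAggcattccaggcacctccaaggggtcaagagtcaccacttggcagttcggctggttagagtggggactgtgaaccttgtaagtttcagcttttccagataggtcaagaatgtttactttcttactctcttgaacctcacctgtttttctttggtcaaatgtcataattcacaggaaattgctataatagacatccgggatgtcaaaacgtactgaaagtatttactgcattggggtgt
Lrg1: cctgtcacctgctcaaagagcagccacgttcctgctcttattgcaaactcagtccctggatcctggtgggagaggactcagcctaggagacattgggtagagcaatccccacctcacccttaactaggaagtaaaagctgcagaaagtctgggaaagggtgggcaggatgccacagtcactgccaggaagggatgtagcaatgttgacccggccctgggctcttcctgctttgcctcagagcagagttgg
A match was present in the Retnlg window alone, a C/EBP motif 246 to 239 bases before the start. Of 32851 RefSeq windows of this length, 9.56% held the C/EBP motif, 2.44% the PU.1 motif and 6.75% the AP-1 motif. A match describes letters, not binding.

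Members carried the neutrophil markers at higher levels than the other gated cells and had little RNA of other cell types. The 12 neutrophil markers summed to 139556 CPM (UMIs per 1000000 UMIs of the class) in sgVC members and 100853 in sgCPT1A members. All 12 were seen, but all except Ly6g are genes of the rule, so these levels follow in part from the choice of cells. Ly6g, the classical mouse neutrophil surface marker, was at 205 CPM in sgVC members. In sgCPT1A members it was at 47.5 CPM, or 14.2 CPM without the deepest cell, which is described below. Markers of B cells were at 0 UMIs in both libraries. The 8 macrophage markers summed to 108 and 116 CPM, the 6 T cell markers to 87.2 and 37.6 CPM, and the 6 tumour markers to 77.7 and 20.0 CPM, in sgVC and sgCPT1A members respectively. Basophil and mast cell markers summed to 88.8 CPM (56 UMIs) in sgVC members, above the 5.51 CPM of sgVC neutrophils low in all 3 sums. In sgCPT1A members they were at 0.587 CPM. Pericyte markers were at 49.2 and 138 CPM in members, near the 47.8 and 118 CPM of those low neutrophils. The 5 fibroblast markers summed to 44.4 CPM in sgVC and 311 CPM in sgCPT1A members, against 1001 and 3756 CPM in neutrophils low in all 3 sums. Comparisons of members with other neutrophils therefore also set little fibroblast RNA against more of it, and the part of that RNA in them was not tested beyond the values given below.

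The libraries held 155948212 UMIs over 9890 barcodes (sgVC) and 35557125 UMIs over 7198 barcodes (sgCPT1A). Members were shallower in sgVC, with a median of 1653.5 UMIs and 623.5 genes, than in sgCPT1A, with 2533 UMIs and 783 genes. Barcodes found in both libraries numbered 18, of which 0 were sgVC members and 3 were sgCPT1A members. Cpt1a was at 15.1 CPM (14.3 to 15.9) in 2787 sgVC cells with at least 0.3% tumour-marker UMIs and at 29.6 CPM (18.3 to 45.2) in 30 such sgCPT1A cells. That goes against the label of a knockdown at the RNA level, on 21 UMIs in sgCPT1A, and a 3′ tag away from the guide's target does not check it. Members had Cpt1a at 19.0 CPM (12 UMIs) in sgVC and 17.0 CPM (29 UMIs) in sgCPT1A.

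The 3 genes were mixed differently in the libraries. Retnlg dominated in sgVC members at 5615 CPM, against 478 CPM in sgCPT1A members. Cxcr2 was at 822 CPM in sgVC members and 1486 CPM in sgCPT1A members, and Lrg1 at 1183 and 2302 CPM. On the log2 scale, sgCPT1A over sgVC, these are differences of -3.56 (-3.67 to -3.44) for Retnlg, 0.85 (0.72 to 0.99) for Cxcr2 and 0.96 (0.85 to 1.08) for Lrg1. Retnlg was lower in the other sgCPT1A neutrophils too, at 50.8 CPM against 218 CPM in sgVC. Members with Retnlg and neither other gene made up 47 of 336 in sgVC and 3 of 659 in sgCPT1A, whereas Cxcr2 with Lrg1 and no Retnlg made up 96 of 336 and 417 of 659. The threshold was thus met mainly through Cxcr2 and Lrg1 in sgCPT1A, and often through Retnlg in sgVC.

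The share of cells with a transcript showed the same mix. A Retnlg UMI was found in 57.4% of sgVC members and 29.1% of sgCPT1A members, and in 55.3% and 16.5% after each cell was thinned to 1000 UMIs (45 and 30 shallower members left out). For Cxcr2 the shares were 67.9% and 94.8%, and 52.9% and 73.6% thinned. For Lrg1 they were 67.0% and 92.0%, and 57.7% and 78.9% thinned. In T cells, which should lack these genes, shares with a UMI were 0.282% for Retnlg, 0.564% for Cxcr2 and 0.423% for Lrg1 in sgVC (709 cells, median 3101 UMIs). In sgCPT1A T cells (369 cells, median 5785 UMIs) they were 0% (which allows up to 0.813%), 1.36% and 1.63%. Member shares lay above these background shares. The rule asks for UMIs of these genes in sum, so that outcome was largely fixed in advance and carries no support.

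Each gene was also higher in cells that the other genes alone would have chosen. In sgVC, Cxcr2 was at 560 CPM in the 223 cells chosen by Retnlg and Lrg1 against 312 CPM in those not chosen. Retnlg was at 4761 against 922 CPM in cells chosen by Cxcr2 and Lrg1, and Lrg1 at 728 against 302 CPM in cells chosen by Cxcr2 and Retnlg. In sgCPT1A the corresponding pairs were 1298 against 558 CPM for Cxcr2, 252 against 153 CPM for Retnlg and 1877 against 745 CPM for Lrg1. Among neutrophils below the interferon and Ccl3/Ccl4 limits, the 3 genes thus went together in each library, with the smallest difference for Retnlg in sgCPT1A. Within members, cells with a Retnlg UMI had less Cxcr2 and Lrg1 than those without (values below). At the threshold, 126 sgVC and 196 sgCPT1A members lay between 0.2% and 0.3%, and 260 and 353 cells just outside lay between 0.1% and 0.2%. Cells just inside and just outside were alike in depth (median 1421 and 1543 UMIs in sgVC, 2514 and 2381 in sgCPT1A). Few members rested on 2 UMIs of the 3 genes, 23 in sgVC and 14 in sgCPT1A, and 0 on 1 UMI.

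Members made up a smaller share of neutrophils in the sgCPT1A library but a larger share of all cells. They were 18.9% (17.1 to 20.8) of 1779 sgVC neutrophils and 14.0% (13 to 15) of 4714 sgCPT1A neutrophils, a log2 ratio of -0.43 (-0.68 to -0.19). Of all kept cells they made up 3.50% (3.14 to 3.88) in the sgVC library and 9.77% (9.07 to 10.5) in the sgCPT1A library, a log2 ratio of 1.48 (1.22 to 1.74). The sgCPT1A library held more neutrophils, 69.9% of kept cells against 18.5%. It also held more interferon-high neutrophils (37.4% of neutrophils against 7.20%) and more Ccl3/Ccl4-high ones (21.6% against 13.7%). Counted among neutrophils below both of those limits, members made up 23.9% (21.7 to 26.2) of the sgVC cells and 34.0% (31.9 to 36.2) of the sgCPT1A cells, so the direction turned with the denominator. By single genes at the same 0.2% limit, Cxcr2 alone chose 2.59% of sgVC and 4.05% of sgCPT1A neutrophils, Lrg1 alone 4.44% and 6.85%, and Retnlg alone 7.87% and 0.870%. A Cxcr2-only or Lrg1-only definition thus gave a larger share in sgCPT1A, and a Retnlg-only definition a smaller one. Nothing about replicate variation in these shares can be said from 1 library per group.

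**Figure D1:**
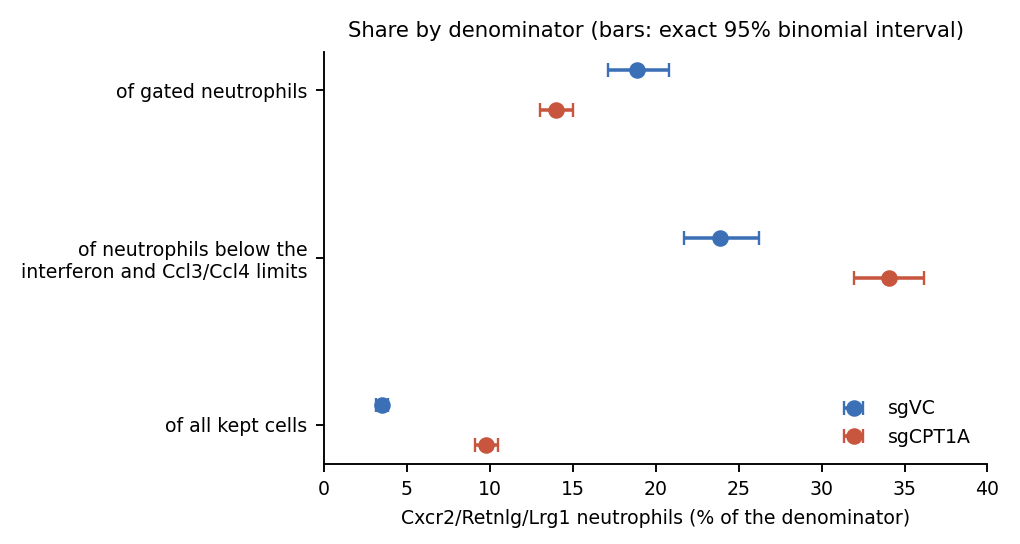
Members as a percentage of 3 denominators (x axis, percent; one row each), with points for the sgVC (blue) and sgCPT1A (red) libraries and bars for the exact 95% binomial interval. The sgCPT1A point lies below sgVC among gated neutrophils (14.0% against 18.9%) and above it for the other denominators.

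Against the other neutrophils of either library, members had more Anxa1, Mmp8, Hp, Selplg and Alox5ap RNA and less Gbp4, Ifit2, Bcl2a1a and Saa3 RNA. Of 4624 genes with at least 50 UMIs in each library, 146 (3.16%) were at least 2-fold higher in members in both libraries and 221 (4.78%) at least 2-fold lower. Within single libraries the balance was opposite, with 192 higher (4.15%) and 919 lower (19.9%) in sgVC and 613 higher (13.3%) and 438 lower (9.47%) in sgCPT1A. The median log2 ratio over these genes was -0.24 in sgVC and 0.19 in sgCPT1A. Since the rule chose cells on the same profiles, these counts describe the chosen cells.

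Among tertiary granule genes, 3 of 9 were at least 2-fold higher in members in both libraries and 0 lower, with median log2 ratios of 1.00 (sgVC) and 1.09 (sgCPT1A). Mmp8, neutrophil collagenase, was at 287 CPM in sgVC members against 67.6 CPM in other sgVC neutrophils, and at 79.2 against 15.2 CPM in sgCPT1A. Hp, the haemoglobin-binding acute-phase protein haptoglobin, was at 833 against 271 CPM and 747 against 280 CPM. Anxa1, a phospholipid-binding protein that restrains neutrophil adhesion, was at 914 against 167 CPM and 244 against 48.1 CPM. All 3 were thus higher in members of either library, with Anxa1 and Mmp8 highest in sgVC members.

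Several of these sgCPT1A levels leaned on 1 cell. That member was the deepest in its library (15839 UMIs, 2390 genes) and held 754 of the 764 Ngp UMIs, 587 of 598 Camp UMIs, 237 of 271 Ltf UMIs and 57 of 81 Ly6g UMIs. Ngp, Camp and Ltf are secondary granule genes of neutrophil precursors in marrow. Without this cell the sgCPT1A members had Ngp at 5.92 CPM in place of 448, Ly6g at 14.2 in place of 47.5, Mmp8 at 52.7 in place of 79.2 and Anxa1 at 134 in place of 244. The log2 ratios of the other 658 sgCPT1A members over other neutrophils were then 0.26 (-0.87 to 1.24) for Ngp, -0.09 (-0.77 to 0.53) for Ly6g, 1.80 (1.41 to 2.17) for Mmp8 and 1.48 (1.25 to 1.71) for Anxa1. Mmp8 and Anxa1 stayed above 2-fold, and Ngp and Ly6g did not. In sgVC, Ngp was spread over 27 of 336 members (8.04%), at 465 CPM against 8.32 CPM in other neutrophils. Ly6g had UMIs in 35 sgVC members (10.4%) and 21 sgCPT1A members (3.19%). The primary granule genes Mpo and Elane had 0 UMIs in members of either library (taking 3 counts of the total as the limit, 0 of 336 allows up to 0.893% and 0 of 659 up to 0.455% of cells with a UMI, and the exact upper bounds are 1.09% and 0.558%). Mki67, a proliferation marker, was seen in 3 sgVC and 10 sgCPT1A members.

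Of 11 adhesion and trafficking genes, Selplg, Itgb2 and Itgal were at least 2-fold higher in members in both libraries and 0 were lower, with medians of 0.76 and 0.92. Selplg, the selectin ligand with which neutrophils roll on vessel walls, was at 370 CPM against 115 CPM (sgVC) and 375 against 92.1 CPM (sgCPT1A). Itgal, the alpha chain of the integrin LFA-1, was at 114 against 34.0 CPM and 125 against 44.2 CPM, and Itgb2, its beta chain, at 144 against 70.9 CPM and 140 against 66.8 CPM. For Selplg, Itgal and Itgb2 the member levels were near each other in the libraries. Thinned to 500 UMIs, the sgVC log2 ratio of Itgal over other neutrophils was 0.71, within 2-fold.

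The other genes that led the members' side have varied roles. Alox5ap, which presents arachidonic acid to 5-lipoxygenase for leukotriene synthesis, was at 1180 against 318 CPM in sgVC and 456 against 108 CPM in sgCPT1A. Pglyrp1, a granule protein that binds bacterial peptidoglycan, was at 450 against 72.7 CPM and 208 against 45.3 CPM. Pygl, the glycogen phosphorylase that frees stored glucose, was at 197 against 59.0 CPM and 111 against 38.1 CPM. Svil (supervillin, an actin-bound membrane protein), Ripor2 (an inhibitor of the small GTPase RhoA) and AB124611 were between 1.47 and 2.12 higher on the log2 scale in either library. These 6 genes had their UMIs spread over 60 or more members in each library, unlike Ngp.

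Receptors were less distinct by the 2-fold rule. Of 18 cytokine receptors and ligands 0 were at least 2-fold higher in members in both libraries, with medians of 0.52 and 0.72. Csf3r, the receptor for G-CSF and a gene of the gate, was at 1153 against 654 CPM in sgVC and 1660 against 591 CPM in sgCPT1A. Il1r2, the decoy receptor that traps interleukin-1 and also a gate gene, was at 623 against 520 CPM in sgVC and 1529 against 515 CPM in sgCPT1A. Il1r2 set members apart mainly in sgCPT1A (log2 ratio 1.57, against 0.26 in sgVC). Of 10 chemoattractant receptors, Cxcr2 and Ltb4r1, the receptor for leukotriene B4, were at least 2-fold higher in both. Ltb4r1 was at 271 against 131 CPM in sgVC and 241 against 84.9 CPM in sgCPT1A.

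Named genes on the lower side included Gbp4, Ifit2 and Bcl2a1a. Gbp4, an interferon-induced GTPase, was at 52.3 CPM in sgVC members against 159 CPM in other neutrophils and at 32.3 against 204 CPM in sgCPT1A. Ifit2, an interferon-induced inhibitor of translation, was at 36.5 against 110 CPM and 115 against 366 CPM. At a 0.1% threshold for the 3-gene sum, the sgVC log2 ratios of Gbp4 and Ifit2 were -0.93 and -0.96, within 2-fold. Bcl2a1a, an anti-apoptotic Bcl2 relative whose reads can be shared with near-identical copies, was at 88.8 against 248 CPM and 106 against 501 CPM. Of 14 survival and death genes Bcl2a1a was the 1 at least 2-fold lower in both libraries, and 0 were higher. Of 32 type I interferon genes 5 were at least 2-fold lower in both libraries and 1, Ifitm1, was higher. Rsad2, one of those 5, belongs to the rule, and the interferon limit removed cells high in such genes.

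Of 23 NF-kB and inflammatory genes 4 were at least 2-fold lower in members in both libraries (Traf1, Csf3 and the rule genes Il1a and Ccl3) and 0 higher, with medians of -0.73 and -0.65, and 19 met neither condition. The list holds Ccl3, Ccl4, Tnf and Il1a, and the limit on their sum put cells high in them among the other neutrophils. Lower levels of this list in members thus follow in part from the rule. Of 5 Cxcr2 ligands 1, Cxcl5, was lower. Cxcl2, a ligand of Cxcr2 and the most abundant transcript of that list in sgVC members, was at 33328 CPM in sgVC members against 51534 CPM in other neutrophils, and at 48922 against 87188 CPM in sgCPT1A. Cd274, which encodes the checkpoint ligand PD-L1, was at 1017 against 1529 CPM and 1135 against 2617 CPM. Cxcl2 was less than 2-fold apart in either library, and Cd274 in sgVC.

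Other genes on the lower side are abundant in other cells of the tumour. Saa3, an acute-phase apolipoprotein, was at 301 against 1311 CPM in sgVC and 556 against 3359 CPM in sgCPT1A, and at 680 and 23910 CPM in cells outside the neutrophil gate. Over the alternatives run its log2 ratio stayed past 2-fold, from -3.14 to -1.83 in sgVC and from -3.34 to -1.79 in sgCPT1A. Sparc, a matrix glycoprotein, was at 17.4 against 214 CPM and 60.4 against 236 CPM, and at 929 and 8378 CPM outside the gate. With cells holding at least 0.5% of markers of other types left out, the sgCPT1A log2 ratio of Sparc went from -1.96 to 0.24. Its sgVC ratio went from -3.61 to -0.87 with a 3% neutrophil gate and to -0.05 thinned to 500 UMIs. Slpi, Npc2 and Tmsb10, also lower by the 2-fold rule, were at 6049, 1271 and 966 CPM outside the gate in sgVC, above their levels in either neutrophil group. The sgVC ratios of Slpi and Npc2 were closer to 0 with a 3% neutrophil gate (-0.71 and -0.89, in place of -1.60 and -1.64). That of Tmsb10 went from -2.08 to -0.60, and its sgCPT1A ratio of -1.26 was within 2-fold in 6 settings, down to -0.38 thinned to 500 UMIs. AW112010 and H2-Q6, the other 2 named genes, were at 36.5 and 52.3 CPM in sgVC members and 36.4 and 53.4 CPM in sgCPT1A members.

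**Figure D2:**
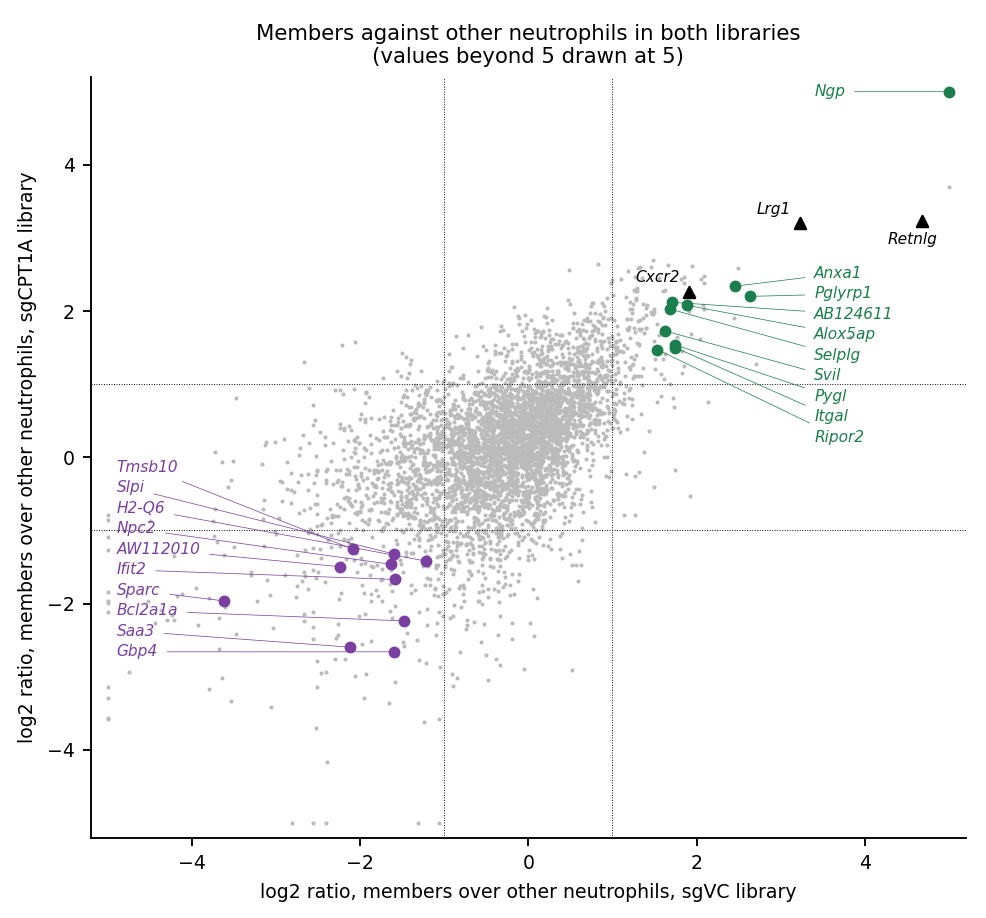
log2 ratio of members over other neutrophils in sgVC (x axis) and sgCPT1A (y axis) for the 4624 genes, with the 10 highest (green) and 10 lowest (purple) named genes and the 3 threshold genes (black triangles). Dotted lines mark 2-fold, and named genes lie in the upper right and lower left corners because the naming rule asks for it.

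Levels were also followed along the 3-gene sum. Neutrophils below the interferon and Ccl3/Ccl4 limits were binned by that sum, at 0, up to 0.2%, up to 0.5%, up to 1% and above. S100a8, a subunit of the antimicrobial protein calprotectin and a gene of the gate, went from 11911 CPM at 0 through 12615, 25343 and 38869 to 68451 CPM in the top bin of sgVC. In sgCPT1A it went from 12741 through 18398, 21266 and 30469 to 24286 CPM, the last bin holding 13 cells. The deepest sgCPT1A member, with a 3-gene sum of 0.657% and 2815 S100a8 UMIs, is in the bin up to 1%. Levels of that bin without this cell were not computed. Wfdc17, a small secreted WAP-domain protein, went along the bins from 2103 to 15573 CPM in sgVC and from 764 to 2173 CPM in sgCPT1A, past a peak of 2389 CPM in the bin before. Ccl3, a gene of the rule's limits, went down along the bins from 7083 to 1524 CPM in sgVC and from 12502 to 2768 CPM in sgCPT1A. Icam1, an adhesion molecule induced by inflammatory signals, went from 863 to 134 CPM and from 1672 to 595 CPM. The bins differ in depth as well, and no order was tested.

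**Figure D3:**
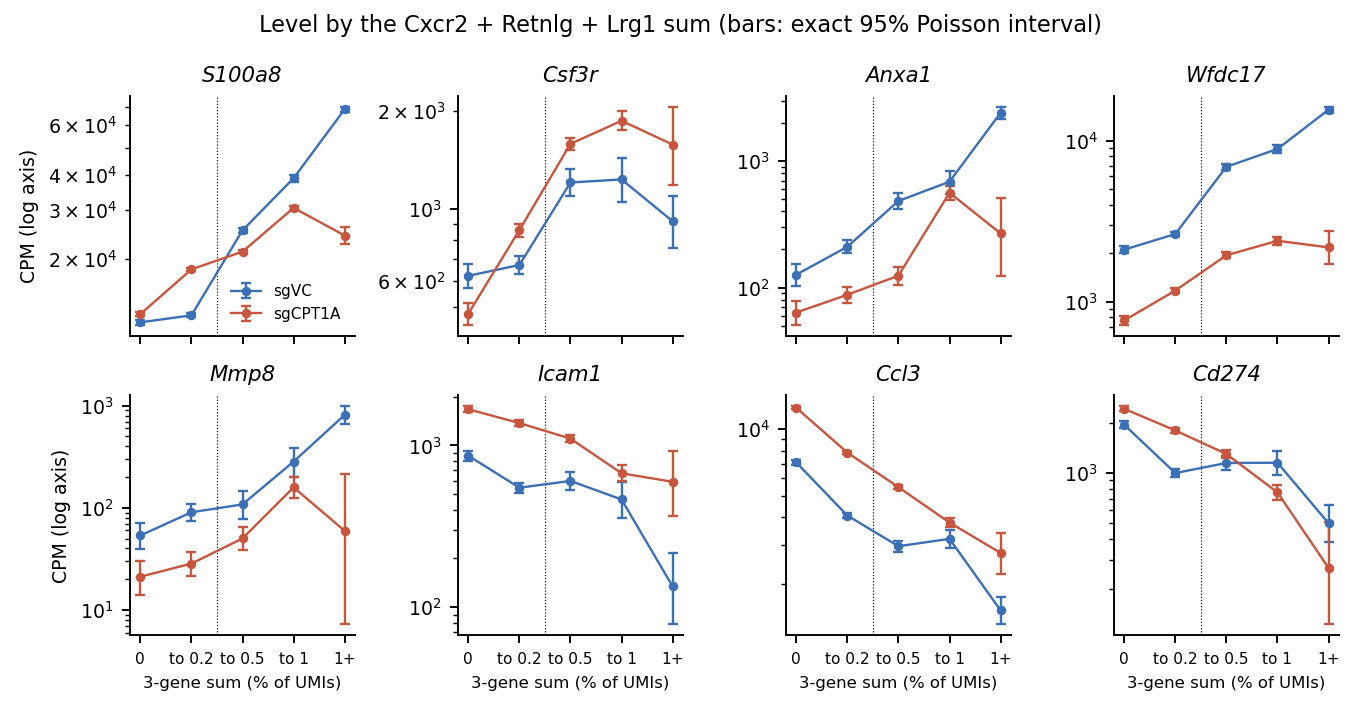
Level in CPM (log y axis) of 8 genes by bins of the Cxcr2, Retnlg and Lrg1 sum (x axis, percent of UMIs) in neutrophils below the interferon and Ccl3/Ccl4 limits, sgVC blue, sgCPT1A red, bars for exact 95% Poisson intervals, the dotted line at 0.2%. S100a8, Anxa1, Wfdc17 and Mmp8 are higher to the right and Icam1, Ccl3 and Cd274 lower, and the last sgCPT1A bin has 13 cells. The sgCPT1A bin up to 1% includes the deepest cell, with 2815 S100a8, 188 Anxa1 and 46 Mmp8 UMIs.

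Within members, cells with a Retnlg UMI differed from those without. Leaving out the deepest sgCPT1A cell, 193 sgVC members had Retnlg and 143 did not, and 191 and 467 in sgCPT1A. Of 1346 genes 9 (0.669%) were at least 2-fold higher with Retnlg in both libraries and 1 (0.0743%) lower. Ccl6, a CC chemokine, was at 1234 CPM with Retnlg and 224 CPM without it in sgVC, and at 576 and 187 CPM in sgCPT1A. Lyz2, lysozyme, was at 994 and 249 CPM in sgVC and at 371 and 170 CPM in sgCPT1A. Mgst1, a membrane glutathione transferase, was at 493 and 127 CPM and at 285 and 108 CPM. The remaining 6 higher genes were Wfdc21, Hmgn2, Stfa2, Cpd, Mtus1 and Mmp8, and the lower one was Scimp, a membrane adaptor of antigen-presenting cells. Members with Retnlg were deeper (median 1953 UMIs against 1355 in sgVC, 2671 against 2428 in sgCPT1A), and the part of depth in these differences was not tested. In sgVC, Il1r2 was lower with Retnlg (436 against 1037 CPM), while in sgCPT1A it was nearly level (1399 against 1607 CPM). Cxcr2 was lower with Retnlg in both libraries (627 against 1250 CPM in sgVC, 1311 against 1583 CPM in sgCPT1A). So was Lrg1 (837 against 1947 CPM and 2007 against 2449 CPM). These genes share the threshold sum with Retnlg, so their levels here follow in part from the rule.

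Members were next compared between the libraries, that is, between tumours of cells with either guide. Of 3219 genes with at least 50 UMIs over both, 290 (9.01%) were at least 2-fold higher in members of the library labelled sgCPT1A and 296 (9.20%) at least 2-fold lower. The median log2 ratio was 0.01, against -0.35 in other neutrophils over the same genes. The 22 rule genes chose the cells in both libraries, and for all other genes this contrast was not part of the rule, though the mix of Cxcr2, Lrg1 and Retnlg differs along with it.

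Of 18 cytokine receptor and ligand genes, Il1r2, Il1rn and Il17ra were at least 2-fold higher in sgCPT1A members, Ifngr1 was lower and 14 were within 2-fold, with a median of 0.42 (other neutrophils 0.02). Il1r2 and Csf3r are genes of the neutrophil gate, so their levels are descriptions of the chosen cells. Il1r2 was at 623 CPM in sgVC members and 1529 CPM in sgCPT1A members, a log2 ratio of 1.29 (1.14 to 1.45), against -0.02 in other neutrophils. Il1rn, the secreted interleukin-1 receptor antagonist, was at 734 and 1543 CPM, a log2 ratio of 1.07 (0.93 to 1.22), but was also higher in other neutrophils (1.52). Its levels in members without a Retnlg UMI were 966 and 1652 CPM, a smaller gap. Neither 2-fold call held in every setting, with Il1r2 at 0.94 for a 0.1% threshold, 0.93 thinned to 1000 UMIs and 0.86 thinned to 500, and Il1rn at 0.93 thinned to 1000, 0.96 without members holding Ngp and 0.86 with cells weighted equally. Csf3r was at 1153 and 1660 CPM, a log2 ratio of 0.53 (0.41 to 0.65) against -0.15 in other neutrophils. Ifngr1, the interferon-gamma receptor chain that binds ligand, was at 146 and 66.9 CPM, lower in sgCPT1A. Il17ra, the interleukin-17 receptor, was at 114 and 229 CPM.

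Chemoattractant receptors had 1 of 9 genes at least 2-fold higher and 0 lower, with a median of 0.69 (other neutrophils 0.50). Cxcr4, the receptor that holds neutrophils in marrow and that aged cells regain, was at 138 CPM in sgVC members and 340 CPM in sgCPT1A members, a log2 ratio of 1.30 (0.97 to 1.64). Thinning to 1000 UMIs brought it to 0.84. Ccrl2, a chemerin-binding receptor, was at 3837 and 6668 CPM. Cxcr2, the rule gene of this list, was within 2-fold (log2 ratio 0.85), and its level follows in part from the threshold it helps to set.

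Of 12 S100, stefin and WAP genes 6 were at least 2-fold lower in sgCPT1A members and 0 higher, with a median of -1.03 (other neutrophils -0.50). Wfdc17 was at 9054 CPM in sgVC members and 2064 CPM in sgCPT1A members, a log2 ratio of -2.13 (-2.19 to -2.07). S100a8 was at 36874 and 23777 CPM and S100a9, its partner subunit, at 76336 and 55198 CPM, while in other neutrophils both were nearly level (log2 ratios 0.11 and -0.03). Among members without a Retnlg UMI the direction was opposite, with S100a8 at 13575 and 19486 CPM and S100a9 at 39044 and 50268 CPM. Both are genes of the gate, so their levels describe the chosen cells. S100a4, a calcium-binding protein of motile cells, was at 87.2 and 6.46 CPM, but 36 of its 55 sgVC UMIs came from 1 cell. Stfa3, a stefin whose reads can be shared with close copies, was at 53.9 and 11.7 CPM.

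Of 9 tertiary granule genes Mmp8, Mmp25 and Anxa1 were at least 2-fold lower and 0 higher, with a median of -0.16. Mmp8 was at 287 and 79.2 CPM, a log2 ratio of -1.86 (-2.19 to -1.53), or -2.45 without the deepest sgCPT1A cell. Ly6g had a log2 ratio of -2.11 (-2.52 to -1.69), or -3.85 without that cell, against 0.07 in other neutrophils. Cd177, a surface glycoprotein of a neutrophil subset, was at 88.8 and 18.2 CPM. Of 8 secondary granule genes 2 were higher and 2 lower, and both of the higher ones, Ltf and Camp, rested on the deepest cell. Without it, Ltf was at 20.1 CPM against 27.0 CPM in sgVC and Camp at 6.52 against 90.4 CPM. The log2 ratios were then -6.29 (-7.37 to -5.39) for Ngp, -3.79 for Camp, -3.53 for Cd177, -1.60 for Lcn2 and -0.42 for Ltf. The even count of 2 and 2 thus rested on that cell.

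Lcn2, the siderophore-binding granule protein lipocalin 2, went in opposite directions in members and in other neutrophils. It was at 2403 CPM in sgVC members and 925 CPM in sgCPT1A members, a log2 ratio of -1.38 (-1.48 to -1.27). Among members without a Retnlg UMI the gap was smaller, with Lcn2 at 747 and 626 CPM. In other neutrophils it was at 1681 CPM (sgVC) and 6950 CPM (sgCPT1A), a log2 ratio of 2.05. It was lower in members than in every other neutrophil class of sgCPT1A, and above the interferon-high and low classes in sgVC.

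**Figure D4:**
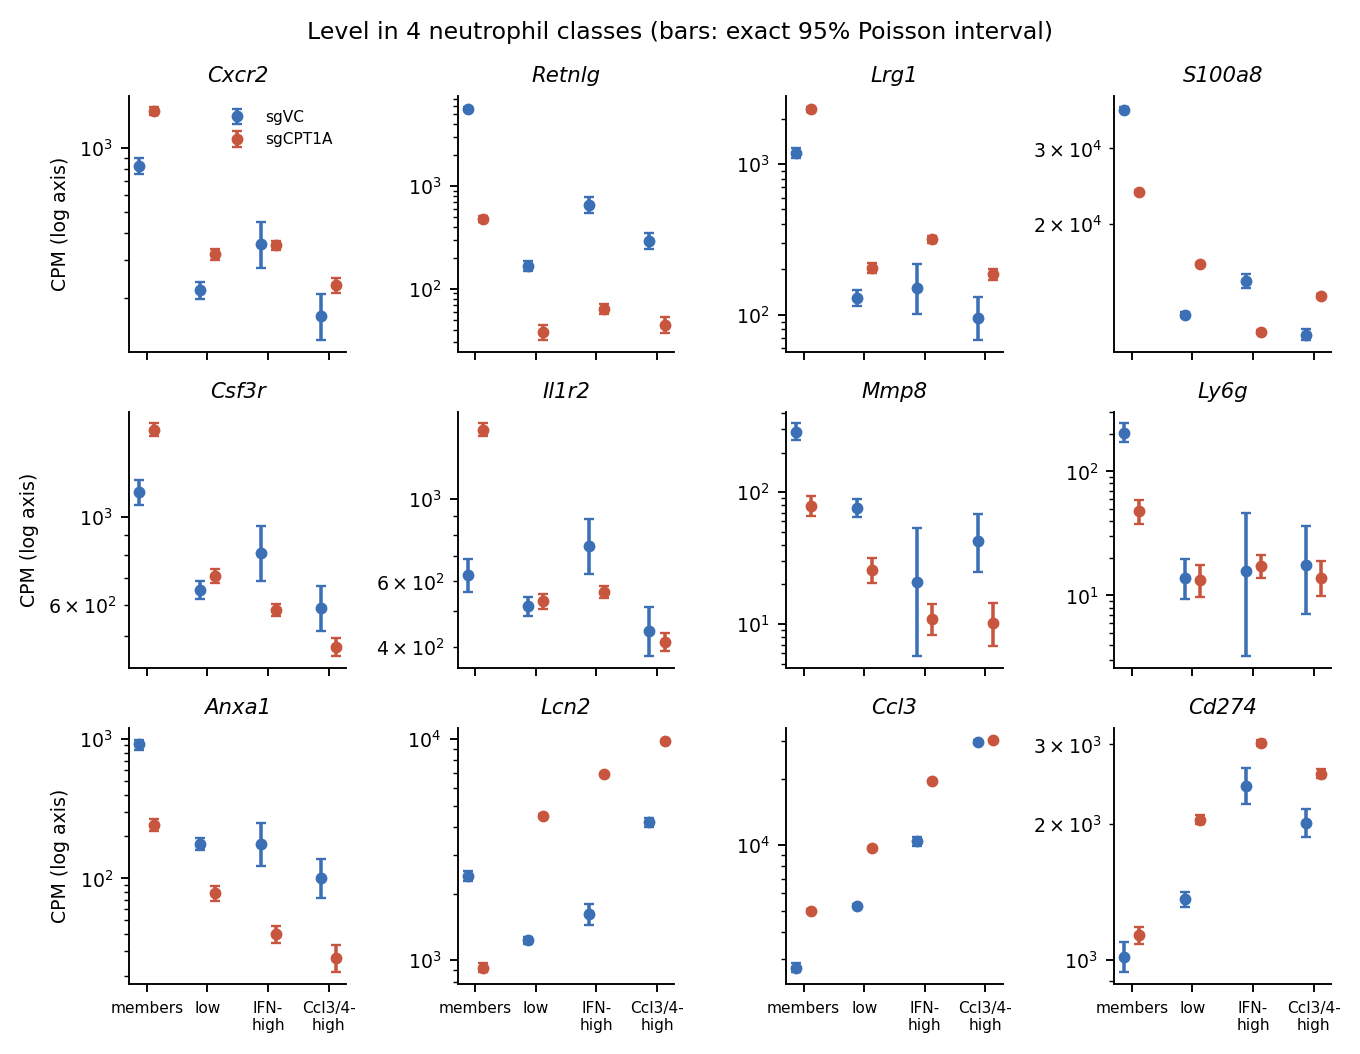
Level in CPM (log y axis, a scale of its own in each panel) of 12 genes in members, neutrophils low in all 3 sums, interferon-high and Ccl3/Ccl4-high neutrophils (x axis), sgVC blue, sgCPT1A red, bars for exact 95% Poisson intervals. Cxcr2, Retnlg and Lrg1 chose the members, Il1r2 stands out in sgCPT1A members at 1529 CPM, and Lcn2 at 925 CPM is lowest in them.

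Glycolysis and hypoxia-response genes were the list most shifted between libraries. Of 26 genes 15 were at least 2-fold lower in sgCPT1A members and 0 higher, with a median log2 ratio of -1.29. In other neutrophils the median was -0.89. Tumour-marker RNA was also lower in sgCPT1A members (77.7 and 20.0 CPM) and fibroblast RNA higher (44.4 and 311 CPM). With cells holding at least 0.5% of other types' markers left out, the median was -1.27. That filter kept 335 sgVC and 655 sgCPT1A members, so it could hardly move the median. The part of other cells' RNA in the difference was not tested. Gapdh, a glycolytic enzyme, was at 2647 CPM in sgVC members and 791 CPM in sgCPT1A members, a log2 ratio of -1.74 (-1.85 to -1.64). Tpi1, which interconverts triose phosphates, was at 496 and 97.4 CPM. Outside the gate Gapdh was at 3274 and 1266 CPM and Tpi1 at 748 and 350 CPM, lower in sgCPT1A as well. Several glycolytic genes have processed pseudogenes, so their reads may be split. Among the genes induced when oxygen is scarce, Bnip3, a mitophagy receptor, was at 287 and 42.8 CPM, Fam162a, a mitochondrial protein, at 628 and 89.8 CPM, and Egln1, a prolyl hydroxylase that marks HIF-1 for destruction, at 105 and 15.8 CPM. Ero1a, an oxidase that forms disulfide bonds in the endoplasmic reticulum, was at 601 and 104 CPM. Among members lacking a Retnlg UMI, gaps were smaller for Fam162a (269 and 91.1 CPM), Ero1a (264 and 92.9 CPM) and Gapdh (1586 and 722 CPM). The same held for Tpi1 (346 and 92.0 CPM) and Bnip3 (188 and 39.1 CPM), and all were still past 2-fold. Neither the list median nor other neutrophils were split this way. Over all members, Bnip3 and Ero1a were further apart between libraries (log2 ratios -2.74 and -2.52) than in other neutrophils (-1.29 and -0.97). Fam162a and Egln1 differed to a like extent in both (-2.81 and -2.72, against -2.37 and -2.34). Hif1a itself was near level at 265 and 271 CPM, and Vegfa at 114 and 139 CPM.

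Of 23 inflammatory genes of the NF-kB pathway 7 were at least 2-fold higher in sgCPT1A members, 0 lower and 16 within 2-fold, with a median of 0.74 (other neutrophils 0.80). The 7 include the rule gene Il1a. Ptgs2, the prostaglandin-forming enzyme cyclooxygenase 2, was at 928 CPM in sgVC members and 2806 CPM in sgCPT1A members, a log2 ratio of 1.60 (1.47 to 1.72). Nfkbiz, an inducible nuclear IkB protein, was at 1102 and 2704 CPM. Icam1 was at 479 and 977 CPM, and Il1b, the cytokine interleukin-1 beta, at 17060 and 21733 CPM. The Icam1 ratio of 1.03 was under 1 in 5 settings, down to 0.78 with cells weighted equally, and that of Nfkbiz was 0.99 thinned to 500 UMIs. Nlrp3, an inflammasome sensor listed with the pattern receptors, was at 1569 and 3593 CPM. The log2 ratios in other neutrophils were in the same direction (1.03 for Ptgs2, 0.94 for Nfkbiz and 1.05 for Nlrp3).

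Type I interferon genes, part of which the rule held down, had 5 of 30 members of the list at least 2-fold higher in sgCPT1A and 1 lower, with a median of 0.53 against 1.36 in other neutrophils. Rsad2 and Ifit3 of these 5 are rule genes. Ifit2 was at 36.5 and 115 CPM, a log2 ratio of 1.66 (1.03 to 2.35). Slfn4, a myeloid Schlafen protein, was at 998 and 2746 CPM. Ifitm1, a membrane protein that blocks virus entry, was the lower gene, at 6792 and 2090 CPM. Of 15 interferon-gamma genes 2 were higher and 1 lower, with Gbp5 at 93.6 and 210 CPM. Cxcl9, a ligand of Cxcr3, was at 23.8 and 106 CPM, with 67 of its 180 sgCPT1A UMIs in 1 cell. Of 4 genes of cGAS-STING signalling, 0 were higher and 1, Ccl5, was lower, with 33 of its 48 sgVC UMIs in 1 cell.

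Genes named by the largest differences outside these lists were mostly low in level. Higher in sgCPT1A members were Hook2, a microtubule linker, at 23.8 and 164 CPM and Slc38a1, an amino acid transporter, at 117 and 537 CPM. Gpr35, a G protein-coupled receptor, was at 39.7 and 164 CPM, and Cd80, a ligand of the T cell receptors CD28 and CTLA-4, higher by a log2 ratio of 1.99 from 25.4 CPM in sgVC. The orphan nuclear receptors Nr4a2 and Nr4a1 were at 17.4 and 106 CPM and at 189 and 533 CPM. Where members had no Retnlg UMI the gaps were smaller for Nr4a1 (391 and 543 CPM) and Slc38a1 (254 and 549 CPM). For all members again, 3 more genes follow. Pgghg was at 12.7 and 100 CPM, Lsmem1 at 34.9 and 153 CPM and Il1bos, annotated opposite Il1b and so able to share its reads, at 33.3 and 138 CPM. Of these, Hook2 differed as much in other neutrophils (log2 ratio 2.80, members 2.79), and Gpr35 less (0.85, members 2.05).

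On the lower side, Prok2, a secreted chemoattractant of neutrophils, was at 634 CPM in sgVC members and 65.7 CPM in sgCPT1A members, a log2 ratio of -3.27 (-3.59 to -2.97) against -0.82 in other neutrophils. Its sgVC level in members was 634 CPM against 168 CPM in other neutrophils, and its sgCPT1A level 65.7 against 94.8 CPM. Among members without a Retnlg UMI, Prok2 was level between sgVC and sgCPT1A, at 61.0 and 61.6 CPM. Among those with one, the deepest cell included, it was at 895 and 74.3 CPM. Over the alternatives run, the log2 ratio of Prok2 in all members ranged from -4.59 to -1.86. Klf2, a transcription factor of quiescent and trafficking leukocytes, was at 2064 and 764 CPM. Gsn, the actin-severing protein gelsolin, was at 230 and 48.1 CPM. Lgals1 and Vim were at 197 and 35.8 CPM and at 392 and 81.0 CPM, and they are abundant outside the gate (7728 and 3640 CPM in sgVC, 2223 and 2153 CPM in sgCPT1A).

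The other lists follow with their counts past 2-fold. Adhesion and trafficking genes had 1 of 11 higher and 1 lower (median 0.06), the 6 NADPH oxidase subunits 0 either way (median -0.18), and 12 pattern receptors 1 and 1 (median 0.33). Survival and death genes had 2 of 13 higher and 0 lower (median 0.10), with Pim1, a survival kinase, at 3372 and 7142 CPM and Mcl1, which neutrophils need to live, at 3846 and 4118 CPM. Transcription factors had 1 of 22 higher and 3 lower (median 0.10), with Cebpb, a myeloid factor, at 7299 and 7587 CPM. Fatty acid oxidation genes had 6 with enough UMIs, 2 of them lower (median -0.29), Plin2, a lipid droplet coat protein, at 1175 and 574 CPM and Acadl, an acyl-CoA dehydrogenase, at 92.0 and 30.5 CPM. In the respiratory chain list 0 of 15 genes were higher and 4 lower (median -0.27, other neutrophils -1.55). Maturation surface genes had 2 of 5 higher and 1 lower (median 0.07), 3 Cxcr2 ligands 0 either way (median 0.55), 17 genes of late tumour neutrophils 0 higher and 2 lower (median 0.02), and 8 suppressive genes 2 and 2 (median -0.04).

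**Figure D5:**
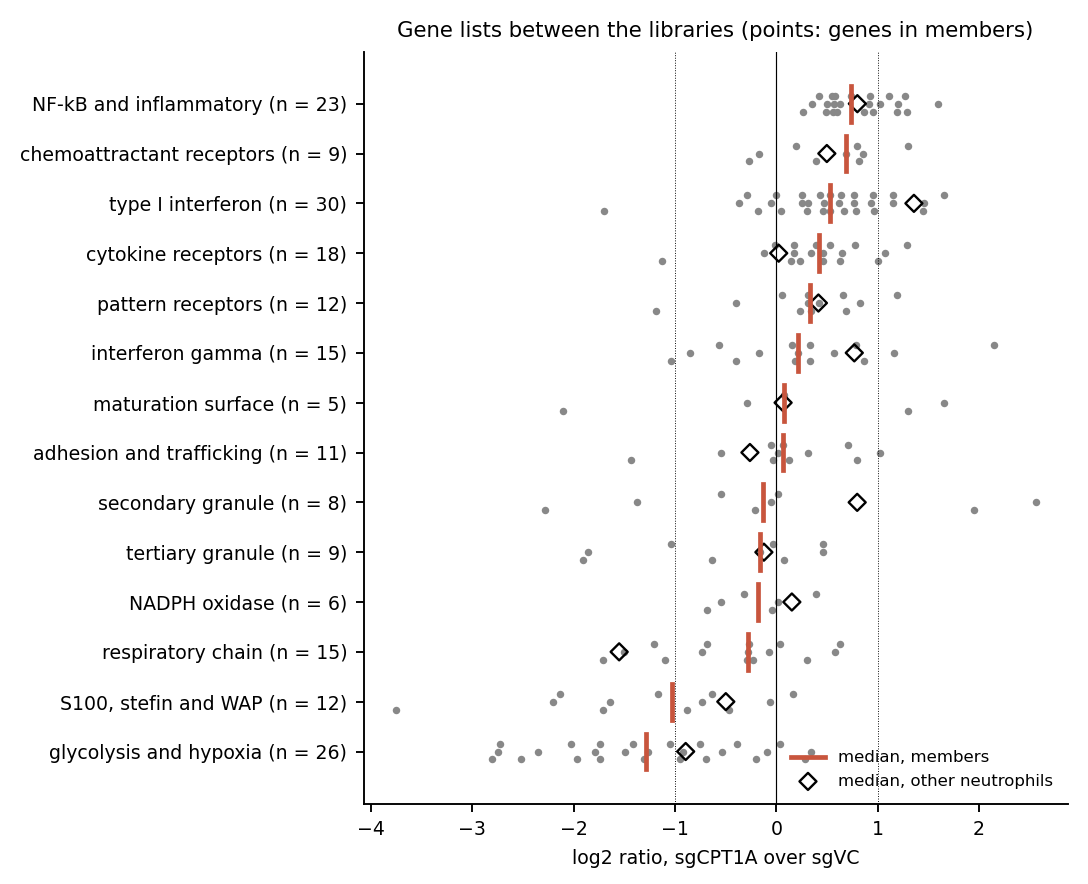
log2 ratio of the sgCPT1A over the sgVC library (x axis) for the genes of 14 lists (rows, with the number of genes), grey points for genes in members, red bars for their median and open diamonds for the median in other neutrophils. Glycolysis and hypoxia lies lowest at -1.29 and NF-kB highest at 0.74, and the members' type I interferon median of 0.53 lies left of the 1.36 of other neutrophils.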

How the data were processed

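The values deposited by the authors were raw UMI counts, 1 matrix per library, written by Cell Ranger 7.1.0 per the file headers. Seurat 4.1.0 and the build GRCm38 appear in the submitters' processing notes. Annotation release, intron use, strand setting and cell calling are not given in the sources used here. The members, gene lists and markers were chosen with earlier results of these data known. UMIs were summed over cells of a class and library and divided by the class total (CPM). A gene entered a comparison with at least 50 UMIs, and 2-fold was the call. Shares have exact Clopper-Pearson intervals, sums exact Poisson intervals and ratios exact conditional binomial intervals. The ratio intervals were tested on simulated Poisson counts with no spread between cells. That check does not cover genes whose UMIs are concentrated in a few cells. With 1 library per group no test was made. Named genes were the 10 highest and 10 lowest per comparison with at least 100 CPM in the higher group, leaving out rule genes, other cell types' markers and mitochondrial, ribosomal, predicted, haemoglobin, sex-linked and receptor segment genes. To them were added the rule genes and up to 4 genes per list. A gene that the rule named is not reported here. Azurophil granule genes had 0 genes with enough UMIs. Il17ra, Cpt1a, Csf3, Hif1a, Itgb2, Ltb4r1, Mmp25, Slfn4, Traf1, Vegfa, the genes split by Retnlg and the deepest sgCPT1A member were named after their values were seen. T cells used as background had at least 0.3% T cell marker UMIs. Scrublet, run per library through scanpy 1.11.5 as an alternative, marked 291 of 9610 sgVC cells and 1 of 6743 sgCPT1A cells. Under 0.5% was taken as not having worked, so doublets remain in both libraries here. Values were computed with Python 3.11.15, numpy 2.4.6, scipy 1.17.1 and pandas 2.3.3.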

Additional observations from a re-analysis of the deposited data

Results flagged for a closer look

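Lcn2, which encodes the granule protein lipocalin 2, stood out because the difference between libraries went in opposite directions in members and in other neutrophils. The log2 ratio of sgCPT1A over sgVC was -1.38 in members and 2.05 in other neutrophils. With 1 library per group the difference between these ratios was not tested. Without the deepest sgCPT1A member, which held 239 of the 1576 Lcn2 UMIs of sgCPT1A members, the ratio in members was -1.60. It was -0.69 at a 0.1% threshold for the 3-gene sum, -0.96 without members holding Ngp and -0.36 in cells thinned to 500 UMIs.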

How the results depend on the processing

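No paired analysis was possible because each group had 1 library, and leaving out a replicate could not be done for the same reason. The log2 ratio of the members' share of neutrophils (-0.43) turned to 0.65 by Cxcr2 alone, 0.63 by Lrg1 alone, 1.48 over all kept cells and, in an alternative chosen after seeing the data, 0.51 over members and low cells, and was -3.18 by Retnlg alone. Between libraries, 290 genes were higher and 296 lower in sgCPT1A members of 3219 compared. These counts became 153 and 169 of 2009 thinned to 1000 UMIs, 100 and 127 of 1447 thinned to 500, 539 and 591 of 5068 at a minimum of 20 UMIs, and 4132 and 3399 of 13609 at 1 UMI. The lower count became 470 of 4162 at a 0.1% threshold for the 3-gene sum and 162 of 1951 at 0.4%. Against other neutrophils, 146 genes were higher and 221 lower of 4624. These became 73 and 44 of 2458 thinned to 1000 UMIs, 34 and 25 of 1773 thinned to 500, and 497 and 3535 of 14867 at 1 UMI. The lower count became 112 at 0.1%, 359 at 0.4%, 66 of 3107 with a 3% neutrophil gate, 126 of 4392 without cells holding RNA of other types, 134 of 3943 without Scrublet doublets, 123 with each cell weighted equally, 558 of 7007 at 20 UMIs and 431 of 4127 against low cells only. Thinning and a stricter sum compare fewer genes and a lower minimum more, and for the rest the cause was not tested. Between libraries, the 2-fold call of genes including Cxcr4, Gbp5, Icam1, Ifngr1, Il1r2, Il1rn, Lcn2, Nfkbiz, Pgghg, Pim1 and Plin2 ended in at least 1 alternative, and so did, against other neutrophils, that of genes including Gbp4, Ifit2, Itgal, Ngp, Ripor2, H2-Q6, Slpi, Npc2, Tmsb10 and Sparc. Ccl5 between libraries turned to 0.19 at 0.4%, and Ltf to -0.10 when thinned to 500. Sparc in sgCPT1A members over other neutrophils turned to 0.0066 with a 3% gate, 0.31 when thinned to 1000 and 0.24 without cells holding RNA of other types. The glycolysis and hypoxia median between libraries ranged from -1.34 to -1.20 over the alternatives run, and the NF-kB median from 0.65 to 0.84. Genes under 50 UMIs were not compared, and with 336 and 659 members the depth limits shares of rare transcripts.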
